A study of Homo sapiens with 60 samples.

Results

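The genes described are the 41 protein-coding genes named after the subunits of the proteasome and its activators: PSMA1 to PSMA7, PSMB1 to PSMB10, PSMC1 to PSMC6, PSMD1 to PSMD14 and PSME1 to PSME4. They were picked by symbol, not by their values, from the 60675 genes of the deposited table. All 41 were found, and all 41 passed the filter on low counts, which left 18396 genes for testing. They were ordered by role: 7 subunits of the alpha ring (PSMA), 7 constitutive subunits of the beta ring (PSMB1 to PSMB7), 3 immunoproteasome subunits (PSMB8 to PSMB10), 6 ATPases of the cap's base (PSMC), 11 other cap subunits, 3 cap assembly factors (PSMD5, PSMD9 and PSMD10) and 4 activators (PSME).

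The proteasome is the protease that destroys proteins tagged with ubiquitin. Its core is a barrel of stacked alpha and beta rings, in which PSMB5, PSMB6 and PSMB7 cut the peptide chain, and its cap recognises the tag, removes it and threads the unfolded protein into the barrel with the help of the ATPases. Interferon-exposed and immune cells replace the cutting subunits with PSMB8, PSMB9 and PSMB10, which favours peptides that the TAP transporter can pass on for display to T cells, and cells that run short of proteasome activity can raise most subunit genes together through the transcription factor NRF1 (NFE2L1).

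The cells were A549, a long-established cell line from a human lung carcinoma. The series treated them for 24 h with ethanol extracts of herbs used in Korean medicine and sequenced their messenger RNA in 60 libraries. Polygalae Radix was given at 380, 76 and 15.2 μg/mL and Aucklandiae Radix at 370, 74 and 14.8 μg/mL, with 2 libraries per dose. For the herbs Menthae Herba and Saposhnikoviae Radix and the multi-herb formulas Guibi-tang and Saengmaek-san the doses were 500, 100 and 20 μg/mL with 3 libraries per dose, for the formula Soyo-san the same with 2, and for the formula Okbyeongpung-san the same with 1. These are called the high, medium and low doses. The 3 vehicle libraries received DMSO, the solvent, at 0.1% by the sample labels and 2% by the series text. By the library names they form a set of their own, which no extract library shares. Extract and library set therefore cannot be told apart in any comparison with vehicle. The series text sets the high dose of an extract that inhibits cells below 500 μg/mL at its IC20, a concentration that inhibits by 20%, so that the high doses of Polygalae Radix and Aucklandiae Radix are such concentrations. All cells are of 1 line, the origin of the replicates is not given, and p-values therefore measure the spread between these libraries, which may be technical.

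Library totals ran from 17113963 to 33363661 expected counts. The lowest was that of replicate 2 at the high dose of Polygalae Radix, and replicate 2 at its medium dose had 19410098. Replicate 3 had 23298837 at the high and 26488194 at the medium dose. The part of depth in the values of these libraries was not tested. The keratin genes KRT8 and KRT18 and the A549 genes AKR1B10, ALDH1A1 and NQO1 were at 299 CPM or more in every library (CPM, the count scaled to a common library size with TMM), whereas the leukocyte gene CD3E was at 0 in all of them and PTPRC, DCN and PECAM1 stayed at or below 0.223 CPM. The epithelial genes KRT19, CDH1 and EPCAM were lower, at 2.1 to 46.0, 11.7 to 35.9 and 2.1 to 7.1 CPM. CD14, a monocyte gene, and COL1A1, a collagen gene, reached 6.00 and 39.7 CPM. The alveolar type 2 marker SFTPC reached 0.141 CPM at most, so the defining surfactant genes of that lineage were near 0. An unlabelled split divides the libraries into class 1 and class 2, told apart by the CPM of gene ENSG00000282955 above or below 10. All 3 vehicle libraries were in class 2, together with all libraries of Soyo-san and Okbyeongpung-san, while all libraries of Aucklandiae Radix and Menthae Herba were in class 1. Polygalae Radix had both classes at its high and medium doses. In a fit with group and class as terms, 17 of the 41 proteasome genes were lower and 8 higher in class 2 (edgeR), against 48% of all genes called in either direction. In such bulk libraries, fewer cells of a kind and less RNA per cell cannot be told apart, and CPM are shares of a library that carry no total RNA per cell.

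In vehicle cells the core and cap genes were well above the immunoproteasome genes. Per kilobase of exon, the 38 genes other than PSMB8 to PSMB10 stood between 5.00 CPM for PSMD9, an assembly chaperone of the base, and 118 CPM for PSMB3, a non-cutting subunit of the beta ring. The immunoproteasome genes came last in that order, at 4.33 ± 0.21 CPM per kilobase for PSMB10, 1.68 ± 0.22 for PSMB8 and 1.61 ± 0.09 for PSMB9 (SD, n = 3). PSMB8 and PSMB9 did not differ beyond their spread. Taken as a share of each cutting pair per kilobase, PSMB8 made up 1.56% to 3.10% of PSMB8 plus PSMB5 over all 60 libraries, PSMB9 0.822% to 1.92% of PSMB9 plus PSMB6, and PSMB10 4.70% to 11.9% of PSMB10 plus PSMB7. The constitutive form thus made up most of each pair's transcripts in every library, in every extract and at every dose.

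Nearly the whole set was lower at the high dose of Polygalae Radix. Against vehicle, 39 of the 41 genes were lower and 0 were higher (edgeR's quasi-likelihood test, Benjamini-Hochberg adjusted p under 0.05), with a median log2 fold change of -1.16 and a range from -2.27 to -0.10. That comparison called 59.6% of all genes, 29.5% of all genes as lower, and its median over all genes was 0.05. Against the low dose of the same extract, 39 genes were lower and 0 higher, with a median of -1.41, where 57% of all genes were called, 29.1% as lower. PSMD5 passed neither test, PSMB10 failed only the first and PSME4 only the second. The high-dose libraries also stood apart in the epithelial and A549 markers: 7 of 8 were below all 58 other libraries, a position held by 19.5% of all genes tested. The summed level of the 8 was 2805 and 3275 CPM, against 17390 to 17880 in vehicle and 9211 or more in all other libraries. KRT8 read 437.5 and 502 CPM there, beside a vehicle mean of 3725. The leukocyte, endothelial, fibroblast and alveolar markers each summed to at most 16.2 CPM in these libraries. Of the 4 leukocyte markers 1, CD14, was also below all 58 others. The fibroblast markers summed to 11.2 and 16.2 CPM, against 30.8 to 33.5 in vehicle and 15.8 or more in all other libraries. The part of this shift in the proteasome result was not tested. The genes' mean level at the high dose had a median of 44.4% of vehicle and 36.9% of the low dose.

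**Figure D1:**
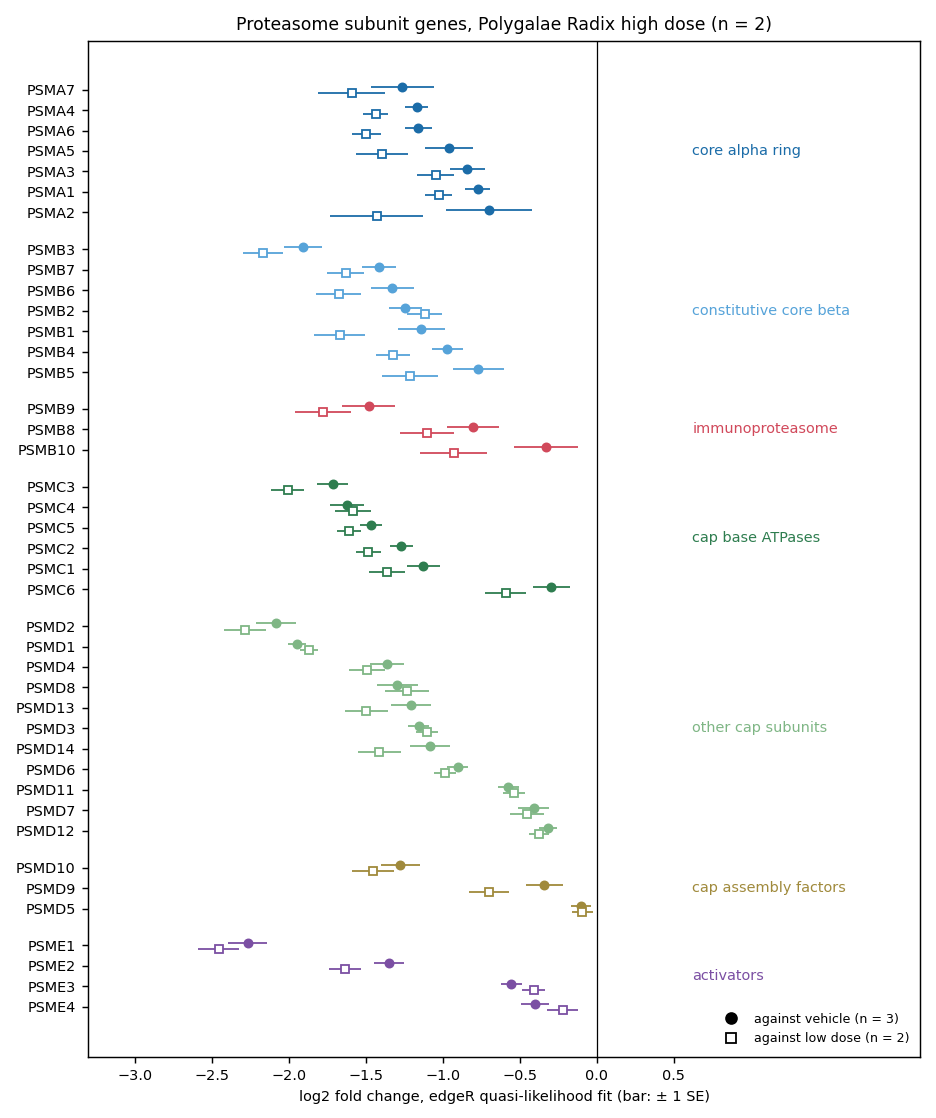
Log2 fold change of each of the 41 genes in the 2 high-dose libraries of Polygalae Radix, against vehicle (filled circles, n = 3) and against the low dose (open squares, n = 2), ordered by role, with bars of 1 SE from the edgeR fit. All points lie below 0, from PSME1 at -2.27 to PSMD5 at -0.10 against vehicle.

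The alpha ring, which gates the entrance of the barrel, fell as a whole, 7 of 7 genes against vehicle with a median of -0.96. PSMA6 is an example with a fall above the ring's median, to a mean of 44.2% of vehicle, in a ring that ran from 41.05% to 60.3%. Its level was 163, 163 and 158 CPM in the vehicle libraries, 201 and 209 at the low dose of Polygalae Radix, 138 and 169 at the medium dose and 65.1 and 77.9 at the high dose. The high-dose libraries lay far below all others, and the low-dose libraries lay above vehicle. PSMA2 had the smallest fall of the ring, -0.70 ± 0.28 (SE), and the highest ratio between the high-dose libraries of that ring, 26.7 and 61.6 CPM beside 72.4 to 73.9 in vehicle. PSMA2 was also the gene with the largest class term of all 41, -0.60 in class 2, and it shares 14.6% of its exon bases with an annotated readthrough gene, AC010132.3, so its counts are less certain.

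The constitutive beta ring fell in 7 of 7 genes, with a median of -1.24. PSMB5, the chymotrypsin-like cutting subunit and the target of bortezomib, stood at 137, 138 and 140.0 CPM in vehicle, 184 and 192 at the low dose, 91.7 and 175 at the medium dose and 58.02 and 102 at the high dose. Both high-dose values were below every vehicle value, but the high-dose library of class 1 exceeded the medium-dose library of class 2. The fall of PSMB5 against vehicle, -0.77 ± 0.17 (edgeR adjusted p = 0.00014), was the smallest of the ring. PSMB6, the caspase-like subunit, fell by 1.33 ± 0.14 and PSMB7, the trypsin-like subunit, by 1.42 ± 0.11 on the log2 scale. PSMB3 fell furthest in the core: its 136, 140 and 140.1 CPM in vehicle and 165 and 170 CPM at the low dose stood against 32.5 and 40.6 at the high dose. Its high-dose libraries lay below all 58 others.

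Among the immunoproteasome genes, PSMB9 fell by 1.48 ± 0.17 and PSMB8 by 0.80 ± 0.17 against vehicle (edgeR adjusted p = 1.1e-09 and 6.9e-05). PSMB9 read 4.63 to 5.16 CPM in vehicle, 5.91 and 6.26 at the low dose, 3.31 and 5.19 at the medium dose and 1.497 and 1.94 at the high dose. PSMB10 read 7.68 to 8.44 CPM in vehicle and 4.24 and 8.09 at the high dose, so that the groups overlapped, and its value of -0.33 ± 0.21 did not pass (edgeR adjusted p = 0.17). The result rests on 1 library: PSMB10 was at 0.01 without the class 2 high-dose library, and at -0.92 (edgeR adjusted p = 0.0041) without the class 1 high-dose library. With class as a term it was -0.52 (edgeR adjusted p = 0.011). Against the low dose, at 10.8 and 13.6 CPM, PSMB10 was lower by -0.93 ± 0.22 (edgeR adjusted p = 0.00033), a call that was lost when only those 4 libraries were fitted (edgeR adjusted p = 0.053). PSMB10 shares 34.8% of its exon bases with the annotated gene AC040162.1. The share of PSMB10 in its pair with PSMB7 was 11.9% in the class 1 high-dose library, the highest of the series, and 7.52% in the class 2 library, beside 4.87% to 5.34% in vehicle. The latter lies within the 6.72% to 7.69% of the high dose of Menthae Herba.

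All 6 base ATPases, which unfold the substrate, fell, with a median of -1.37, the largest median fall of the 7 roles, although their range overlapped that of every other role. PSMC3 had the largest fall of them, from 117, 124 and 123 CPM in vehicle to 34.3 and 38.8 at the high dose, or -1.71. PSMC6 had the smallest, -0.30 ± 0.12, from 72.4 to 74.9 CPM in vehicle to 49.1 and 69.6. The 6 ATPases form 1 ring with 1 copy of each, yet their transcripts differed in response by more than their SEs. PSMC1, at -1.13, is less certain, since its annotated pseudogene PSMC1P1 was counted at a median of 13.8 CPM over the libraries.

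The 11 other cap subunits fell in 11 of 11, with a median of -1.16 and the widest range of any role within the cap. PSMD1 and PSMD2 are the large scaffold subunits that carry ubiquitin receptors. PSMD2 read 253, 255 and 268 CPM in vehicle, 293 and 303 at the low dose, 133 and 211 at the medium dose and 47.4 and 73.0 at the high dose, a change of -2.08 ± 0.13 against vehicle (edgeR adjusted p = 9e-18). PSMD1 read 270.5, 300.1 and 277 CPM in vehicle and 70.5 and 74.2 at the high dose, a change of -1.95 ± 0.06 (edgeR adjusted p = 4e-28). PSMD1 lies on chromosome 2 from 231056864 to 231172827 and PSMD2 on chromosome 3 from 184298709 to 184309054 (GRCh38, GENCODE 29). In both genes the dose groups did not overlap between high, medium and low. At the other end were 2 lid subunits, PSMD12 at -0.32 and PSMD7 at -0.41, both still past the threshold.

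The assembly factors PSMD5, PSMD9 and PSMD10 hold base ATPases during assembly and are not part of the finished particle. PSMD5 was nearly level: 83.5, 85.9 and 84.1 CPM in vehicle, 80.2 and 88.0 at the low dose, 89.8 and 84.6 at the medium dose and 80.5 and 75.0 at the high dose. Its high-dose and low-dose groups overlapped. PSMD9 fell by 0.34 and PSMD10 by 1.28 on the log2 scale against vehicle, so the 3 factors did not move as a unit.

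The activators fell in 4 of 4, between -2.27 and -0.40. PSME1, which forms with PSME2 the ring that opens the core without ubiquitin or ATP, had the largest fall of all 41 genes: 49.1, 51.5 and 51.0 CPM in vehicle, 57.1 and 58.4 at the low dose, 26.2 and 42.7 at the medium dose, and 10.8 and 10.1 at the high dose. That is -2.27 ± 0.13 against vehicle (edgeR adjusted p = 3.4e-19), and the lowest of the other 58 libraries stood at 26.2 CPM. PSME2 fell by 1.35 ± 0.10, PSME3, the nuclear activator, by 0.55 ± 0.07, and PSME4, an activator best known from sperm and DNA repair, by 0.40 ± 0.09 (edgeR adjusted p = 1.2e-15, 2.2e-09 and 0.0002). PSME1 and PSME2 are neighbours on chromosome 14, at 24136158 to 24138967 and 24143362 to 24147570. They fell further than PSME3 and PSME4, by more than the SEs of the 4 values.

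Core and cap moved by much the same amount under this extract. The 14 core genes had a median of -1.15 against vehicle and the 17 cap subunits a median of -1.21, with 14 of 14 and 17 of 17 lower. Across the 41 genes, the fall against the low dose had a Spearman's rho of -0.01 with the vehicle CPM, -0.32 with the vehicle CPM per kilobase and 0.43 with exon length, so that longer genes and genes with a lower level per kilobase tended to fall less. These correlations run over genes measured in the same 4 libraries and are descriptions only.

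**Figure D2:**
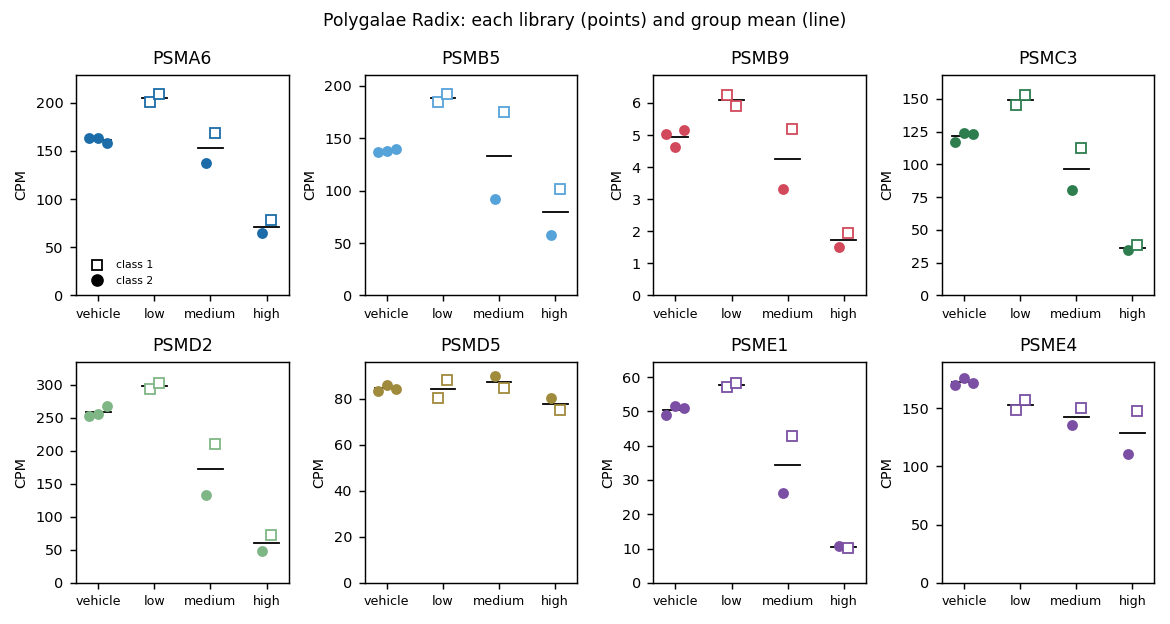
CPM of 8 proteasome genes in the vehicle libraries and at each dose of Polygalae Radix, with a point for each library (squares for class 1, circles for class 2) and a line at the group mean. PSMD2, PSME1 and PSMC3 step down from low to medium to high dose, and PSMD5 stays between 75.0 and 89.8 CPM.

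The fall was found on either side of the class border. Within class 2, the 1 high-dose library of that class was below the mean of the 3 vehicle libraries in 41 of 41 genes, with a median log2 ratio of -1.31, and within class 1 the other high-dose library was below the mean of the 2 low-dose libraries in 41 of 41, with a median of -1.24. Both values have no test and were added after the data had been seen. With class as a term, 40 genes were lower than vehicle, with a median of -1.16. That fit called 62.2% of all genes, 5743 of 18396 as lower. With 1 library left out, the count ran from 35 without the class 2 high-dose library, where the median was -0.94, to 40 without the class 1 high-dose library, where it was -1.31. Both high-dose libraries lay below all 3 vehicle libraries in 40 of the 41 genes, a position held by 35% of all genes tested. They lay below all 58 other libraries in 33 of the 41, against 19.5% of all genes tested. The mean level stepped down from low to medium to high dose in 37, against 32%.

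At the medium dose of Polygalae Radix, 10 of the 41 genes were lower than vehicle and 0 higher, where 18.3% of all genes were called, 9.65% as lower. The largest changes were in PSMD1, -0.72 ± 0.06, and PSMD2, -0.59 ± 0.12 (edgeR adjusted p = 2e-13 and 0.00031). The medium-dose libraries differed between themselves. Without replicate 2, of class 2, 2 genes were lower and 2 higher with a median of 0.05, and without replicate 3, of class 1, 26 were lower with a median of -0.42. PSMD1 read 163 CPM in the former and 179 in the latter, both below every vehicle library. At the low dose, 7 genes were higher than vehicle and 0 lower, where 6.39% of all genes were called, 3.54% as higher, led by PSMB1, 0.53 ± 0.14, and PSMB4, 0.35 ± 0.10 (edgeR adjusted p = 0.023 and 0.027). Both low-dose libraries are of class 1. With class as a term 6 genes were higher and 1 lower, where 12.9% of all genes were called. PSMB1, at 0.23, and PSMB4, at 0.25, then did not pass (edgeR adjusted p = 0.17 and 0.086). Without the class term, the count of 7 fell to between 0 and 2 with any 1 of the 5 libraries left out.

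Genes around the proteasome moved in both directions at the high dose, in a comparison with vehicle that called 59.6% of all genes, 29.5% as lower. Of 6 other proteasome assembly genes, POMP fell by 0.74 and PAAF1, a factor of the cap's base, by 0.54. PSMG3 rose by 0.57 and PSMG4 by 0.43, and PSMG1 and PSMG2 did not pass. Of 9 proteins that bind the proteasome, 5 fell and 2 rose. The ubiquitin receptor ADRM1 fell by 1.07, the inhibitor PSMF1 by 0.92 and the deubiquitinase USP14 by 0.79, and the binding protein ZFAND5 rose by 0.71 and the ligase UBE3C by 0.23. Of 12 genes that supply and deliver ubiquitin, 8 fell and 0 rose, led by the activating enzyme UBA1 at -1.94, the segregase VCP at -1.77 and the polyubiquitin gene UBB at -1.71, with UBB at 719, 751 and 718 CPM in vehicle and 212 and 229 at the high dose.

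Of 10 genes of the NRF1 and NRF2 pathways, 5 rose and 1 fell against vehicle, a share near the 59.6% called among all genes. NFE2L1 itself was lower by -0.21 ± 0.08, and its libraries overlapped between high dose, 253 and 305 CPM, and low dose, 285 and 298 CPM. NFE2L2, which encodes NRF2, rose by 0.70 ± 0.09, and their small MAF partners rose by 1.35 (MAFK), 0.97 (MAFF) and 0.49 (MAFG), as did FBXW7 by 0.53. The processing enzymes DDI2 and NGLY1 did not pass the threshold. Of 11 genes of antigen presentation and interferon signalling, 7 fell and 1 rose. ERAP1, which trims peptides, fell by 0.96 and B2M, the light chain of MHC class I, by 0.82, and NLRC5 rose by 0.84.

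NRF1 and NRF2 bind antioxidant response elements, and the letters of the element's core, TGACNNNGC on either strand, were looked for in promoter windows from 250 bases before to 50 bases after each RefSeq start site. The windows of 36 of the 41 genes were in the RefSeq table (GRCh38.p14). PSMA7, PSMB1, PSMB6, PSMB7 and PSMD4 had no entry. The core was found in 13 of the 36, or 36.1%, against 16.1% of 27305 genes. The 13 had a median log2 fold change of -1.35 at the high dose of Polygalae Radix and the other 23 a median of -0.96. A match is a stretch of letters and not a tested site. Shown are matches from 3 genes with large falls, PSME1, PSMD1 and PSMB3, and from 2 with small ones, PSMD12 and PSMD5, since both kinds carry it. Each is written 5′ to 3′ on the gene's strand with 10 bases on either side where the window allows, and capitals mark the match.
PSME1: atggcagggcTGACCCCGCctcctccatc
PSMD1: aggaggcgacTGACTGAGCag
PSMB3: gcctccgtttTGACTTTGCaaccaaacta
PSMD12: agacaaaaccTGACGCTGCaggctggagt
PSMD5: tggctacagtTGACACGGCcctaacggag
These lie at chr14:24136098-24136126 on the plus strand for PSME1, chr2:231056896-231056916 plus for PSMD1, chr17:38752627-38752655 plus for PSMB3, chr17:67366724-67366752 minus for PSMD12 and chr9:120843038-120843066 minus for PSMD5. The match begins at position -86 from the start site in PSME1, -104 in PSMB3, -165 in PSMD12 and -134 in PSMD5, and at 40 bases past it in PSMD1.

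Aucklandiae Radix gave the opposite sign, which was not particular to it. The median of the 41 genes against vehicle was positive in every group except the high and medium doses of Polygalae Radix. These positive medians ran from 0.05 at the medium dose of Soyo-san to 0.31 at the high dose of Aucklandiae Radix. Their shared sign cannot be told apart from an offset of the vehicle libraries, which are a library set of their own. At the high dose of Aucklandiae Radix, 25 of the 41 genes were higher than vehicle and 1 was lower, where 35.7% of all genes were called, 18.5% as higher. The median of the 41 was 0.31, beside 0.02 for all genes. Of the core genes 12 of 14 rose, with a median of 0.59, and of the cap subunits 9 of 17, with a median of 0.27. The 6 base ATPases rose in 6 of 6, between 0.27 and 0.39, and the other cap subunits in 3 of 11. PSMB5 rose by 0.71 ± 0.16, from 137 to 140.0 CPM in vehicle to 220.2 and 232, PSMB6 by 0.73 ± 0.13 and PSMB1 by 0.78 ± 0.14 (edgeR adjusted p = 0.00058, 1.8e-05 and 3.2e-05). PSME3 was the gene that fell, by 0.27 ± 0.07, and PSME1 at -0.05, PSME2 at 0.17 and PSME4 at -0.14 did not pass.

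All Aucklandiae Radix libraries are of class 1 and all vehicle libraries of class 2, so this comparison cannot be made within a class. With class as a term, estimated from the extracts that have both, 20 genes were higher and 2 lower. That fit called 37.3% of all genes, 3416 of 18396 as higher. Among the higher were 10 of 14 core genes and 8 of 17 cap subunits. The core median was then 0.36 and the cap median 0.16. PSMB5 was at 0.42, PSMB6 at 0.52 and PSMB1 at 0.48, all past the threshold, and PSMA2, at 0.37, and PSMB10, at 0.39, did not pass. PSMB9 was at 0.95. Between the high and low doses, which share the class, only 2 of the 41 passed, both higher: PSMB9 by 0.77 ± 0.16 and PSMB7 by 0.36 ± 0.11 (edgeR adjusted p = 0.00026 and 0.021), where 18.4% of all genes were called. The median of the 41 was then 0.10. PSMB5 read 195 and 193 CPM at the low dose, so most of its distance from vehicle was already there. At the low dose 8 genes and at the medium dose 9 were higher than vehicle and 0 lower, where 7.24% and 5.59% of all genes were called, 3.82% and 2.91% as higher. Leaving out any 1 of the 5 libraries cut these counts to between 0 and 1 and to between 0 and 3. PSMB7 lost its call between high and low dose with any 1 of the 4 libraries left out, and the count was then 1.

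PSMB9 had the largest rise of the 41 genes at the high dose of Aucklandiae Radix, both against vehicle and against the low dose. It read 5.03, 4.63 and 5.16 CPM in vehicle, 6.18 and 5.37 at the low dose, 6.08 and 6.43 at the medium dose and 10.3 and 9.28 at the high dose. The high-dose libraries stood above every other library of the series, and low and medium doses overlapped. Against vehicle PSMB9 rose by 0.99 ± 0.14 (edgeR adjusted p = 4.6e-07), while PSMB8 rose by 0.51 ± 0.15 and PSMB10 by 0.71 ± 0.19 (edgeR adjusted p = 0.0059 and 0.003). Against the low dose PSMB8, at 0.21 ± 0.16, and PSMB10, at 0.16 ± 0.20, did not pass. TAP1, the transporter gene beside PSMB9 on chromosome 6, read 22.6, 21.2 and 22.6 CPM in vehicle, 23.0 and 24.8 at the low dose, 25.3 and 24.1 at the medium dose and 46.6 and 44.5 at the high dose. It rose by 1.04 ± 0.10 against vehicle and by 0.93 ± 0.11 against the low dose. Of the 11 genes of antigen presentation and interferon signalling, 4 rose and 1 fell against vehicle, where 35.7% of all genes were called, 18.5% as higher. Those that rose were TAP1, IRF1 at 0.25, STAT2 at 0.24 and ERAP1 at 0.20, while NLRC5, TAP2 and B2M did not pass.

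**Figure D3:**
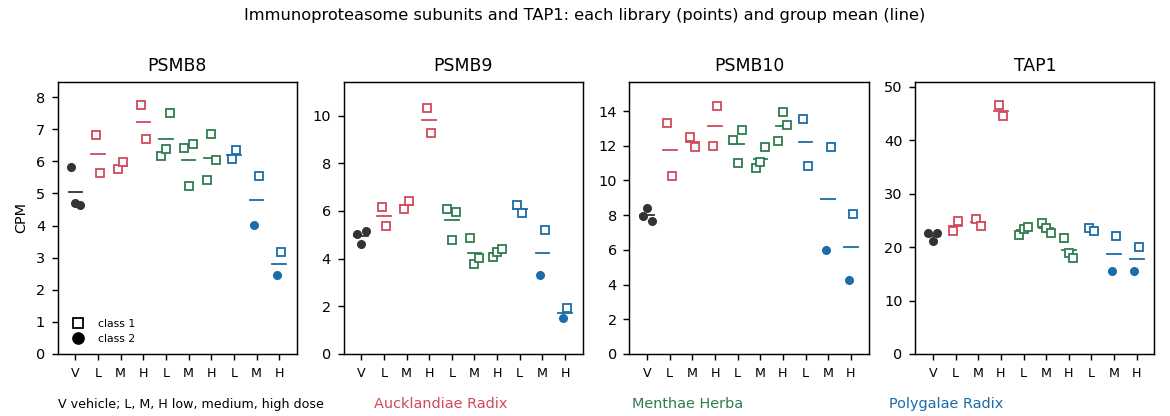
CPM of the 3 immunoproteasome genes and TAP1 in vehicle (V) and at the low (L), medium (M) and high (H) doses of Aucklandiae Radix, Menthae Herba and Polygalae Radix, with a point for each library (squares for class 1, circles for class 2) and a line at the group mean. PSMB9 and TAP1 stand at 9.28 to 10.3 and 44.5 to 46.6 CPM at the high dose of Aucklandiae Radix and lower in all other groups shown.

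PSMB9 and TAP1 start 488 bases apart on opposite strands, by the nearer of 2 RefSeq start sites of TAP1, and share 0 exon bases in GENCODE 29. The gene span of PSMB9 there, chromosome 6 from 32844136 to 32859585, takes in that of TAP1, from 32845209 to 32853978, and PSMB9 shares 4.52% of its exon bases with PSMB8 on the opposite strand. The 250 bases before the start of PSMB9 are shown because the stretch lies between the RefSeq start sites of the 2 genes. They occupy chr6:32853942-32854191 on the plus strand (GRCh38.p14, RefSeq), and capitals mark a match to the antioxidant core as it reads on the opposite strand, which begins at position -148.
PSMB9: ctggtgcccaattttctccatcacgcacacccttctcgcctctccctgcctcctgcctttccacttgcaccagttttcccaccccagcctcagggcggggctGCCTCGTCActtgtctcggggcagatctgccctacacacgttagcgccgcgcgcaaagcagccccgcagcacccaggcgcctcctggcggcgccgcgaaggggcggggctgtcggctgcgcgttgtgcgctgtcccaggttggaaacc
The core of the interferon-stimulated response element, GAAA followed after any 2 bases by GAAA on either strand, was in 6 of the 36, or 16.7%, against 4.4% of all genes: PSMA4, PSMB4, PSMB8, PSMB10, PSME1 and PSME2. The PSMB9 window held no match, but it reaches back only to chr6:32853942. The TAP1 window held 2 overlapping ones, within chr6:32853813-32853848 with their flanks. These lie between the nearer start site of TAP1 and that of PSMB9, outside the PSMB9 window. Shown are the matches of 4 of the 6 genes, PSMB8, PSMB10, PSME1 and PSME2, again with 10 bases on either side, as matched on either strand.
PSMB8: gatctgtggcTTTCGCTTTCacttcctcct
PSMB10: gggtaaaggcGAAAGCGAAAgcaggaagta
PSME1: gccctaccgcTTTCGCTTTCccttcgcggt
PSME2: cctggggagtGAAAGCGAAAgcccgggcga
They lie at chr6:32844032-32844061 (minus strand), chr16:67936852-67936881 (minus), chr14:24136189-24136218 (plus) and chr14:24146619-24146648 (minus). The 6 genes with the letters had a median log2 fold change of -1.07 at the high dose of Polygalae Radix and the other 30 a median of -1.10.

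The contrast between the extracts was tested directly, as the difference of their high against low dose changes within 1 set of libraries. It was negative and past the threshold for 38 of the 41 genes when Aucklandiae Radix was subtracted from Polygalae Radix, where 45.9% of all genes were called, 25.3% as lower, and the median of the 41 was -1.55. The largest differences were in PSMB9, PSMD2 and PSMB3. The same test between Menthae Herba and Saposhnikoviae Radix passed for 0 of the 41 genes (3 at an unadjusted p under 0.05, edgeR) where 6.43% of all genes were called, and between Guibi-tang and Saengmaek-san for 0 (1 unadjusted) where 0.451% were.

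At the high dose of Menthae Herba 19 of the 41 genes were higher than vehicle and 2 lower, where 29.6% of all genes were called, 14.6% as higher, with a median of 0.26. The core again led, with 10 of 14 higher, beside 5 of 17 cap subunits. PSMA2, at 0.75 ± 0.24, and PSMB10, at 0.71 ± 0.17, rose most, while PSMD11, at -0.20 ± 0.06, and PSMD1, at -0.14 ± 0.05, fell. All its libraries are of class 1. With class as a term, 12 were higher and 1 lower, with a median of 0.17, and PSMD1 and PSMD11 no longer passed. That fit called 31.3% of all genes, 2800 of 18396 as higher. Among the higher were 5 of 14 core genes and 5 of 17 cap subunits, whose medians were 0.20 and 0.16, so the core no longer led by count. PSMA2 was then at 0.15 and PSMB10 at 0.39 (edgeR adjusted p = 0.56 and 0.06), and neither passed. Between high and low dose, which share the class, PSMD5 rose by 0.23 ± 0.06 and PSMB9 fell by 0.39 ± 0.13 (edgeR adjusted p = 0.0041 and 0.039), where 15.5% of all genes were called. PSMB9 read 6.07, 4.79 and 5.97 CPM at the low dose, 4.86, 3.78 and 4.04 at the medium dose and 4.08, 4.27 and 4.41 at the high dose. The high-dose libraries lay below all low-dose libraries. This call of PSMB9 was lost with any 1 library left out other than low replicate 2, with adjusted p up to 0.15 (edgeR).

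At the low dose of Menthae Herba 18 genes were higher than vehicle, where 13.1% of all genes were called, 7.32% as higher. At the medium dose 3 were higher, where 5.54% were called, 2.9% as higher. The low-dose count rested on replicate 3: it was 0 without it, 14 without replicate 1, 19 without replicate 2, where 2 others were lower, and 10 to 12 without a vehicle library. The medium-dose count was 0 or 1 with any 1 library left out. In the low-dose group PSMA2 read 113 and 109 CPM in replicates 1 and 2 and 153 in replicate 3.

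The libraries of Soyo-san share class 2 with vehicle but not its library set. At the high dose of Soyo-san 14 genes differed from vehicle, 11 higher and 3 lower. There 28.6% of all genes were called, 13% as higher and 15.6% as lower. PSMB8 rose by 0.51 ± 0.15 and PSMC3 by 0.38 ± 0.09 (edgeR adjusted p = 0.01 and 0.002). PSME4 fell by 0.48 ± 0.09 (edgeR adjusted p = 0.00012), from 170.1, 176 and 171 CPM in vehicle to 124 and 122, and did not overlap. Its low-dose libraries, 132 and 146 CPM, and medium-dose libraries, 148 and 144 CPM, lay between. PSMD12 and PSMD5 fell by 0.26 and 0.21. With a library left out the count was 1 without high-dose replicate 2 and 7 or 8 without any other of the 5. At the low dose 1 gene was higher (PSMC3) and 2 lower (PSME4 and PSMD12), where 10.7% of all genes were called, and the count was 0 without low-dose replicate 1, 1 without vehicle replicate 1 and 2 without any other. At the medium dose 0 passed (3 unadjusted, edgeR; 0 by DESeq2), where 0.0652% of all genes did. From low to high dose 0 passed (1 unadjusted, edgeR; 0 by DESeq2), where 1.24% of all genes did.

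Fewer calls were made for the other extracts, whose comparisons with vehicle also cross library sets. Saposhnikoviae Radix changed 0 genes at its high dose (10 unadjusted, edgeR; 1 by DESeq2), 13 at its medium dose, all higher, and 4 at its low dose, all higher (24 and 21 unadjusted at these doses), where 1.04%, 7.94% and 4.1% of all genes were called. The shares called higher at the medium and low doses were 4.54% and 2.3%. The medium-dose count was 0 without medium replicate 2, 1 to 5 without a vehicle library and 10 or 15 without medium replicate 1 or 3, and the low-dose count was 0 without any 1 of the 6 libraries. PSMB1 led at both doses, with 0.51 ± 0.13 and 0.48 ± 0.13. With class as a term it was at 0.21 and 0.17 and did not pass at either dose (edgeR adjusted p = 0.16 and 0.29). Saengmaek-san changed 0 genes at its high, medium and low doses by edgeR (6, 13 and 10 unadjusted; 1, 0 and 0 by DESeq2), where 3.79%, 0.391% and 0.522% of all genes were called. Guibi-tang changed 2 genes at its high dose, PSMA1 at 0.22 ± 0.07 and PSMD1 at -0.18 ± 0.05 (edgeR adjusted p = 0.034 and 0.015), where 9.56% of all genes were called, and with any 1 library left out 0 or 1 remained past the threshold. At its medium and low doses 0 passed (13 and 3 unadjusted, edgeR; 0 and 0 by DESeq2), where 0.582% and 0.261% of all genes did. From low to high dose 0 genes passed for Saposhnikoviae Radix (0 unadjusted, edgeR), Saengmaek-san (1) and Guibi-tang (2), where 0.0707%, 0.0707% and 2.94% of all genes did.

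Okbyeongpung-san has 1 library per dose and no test. By the rule of at least 1.5-fold from the vehicle mean and outside the vehicle range, 0 of the 41 genes were called at the high, medium and low doses, where 10.3%, 12% and 9.95% of all genes were. The medians of the 41 were 0.12, 0.12 and 0.15.

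**Figure D4:**
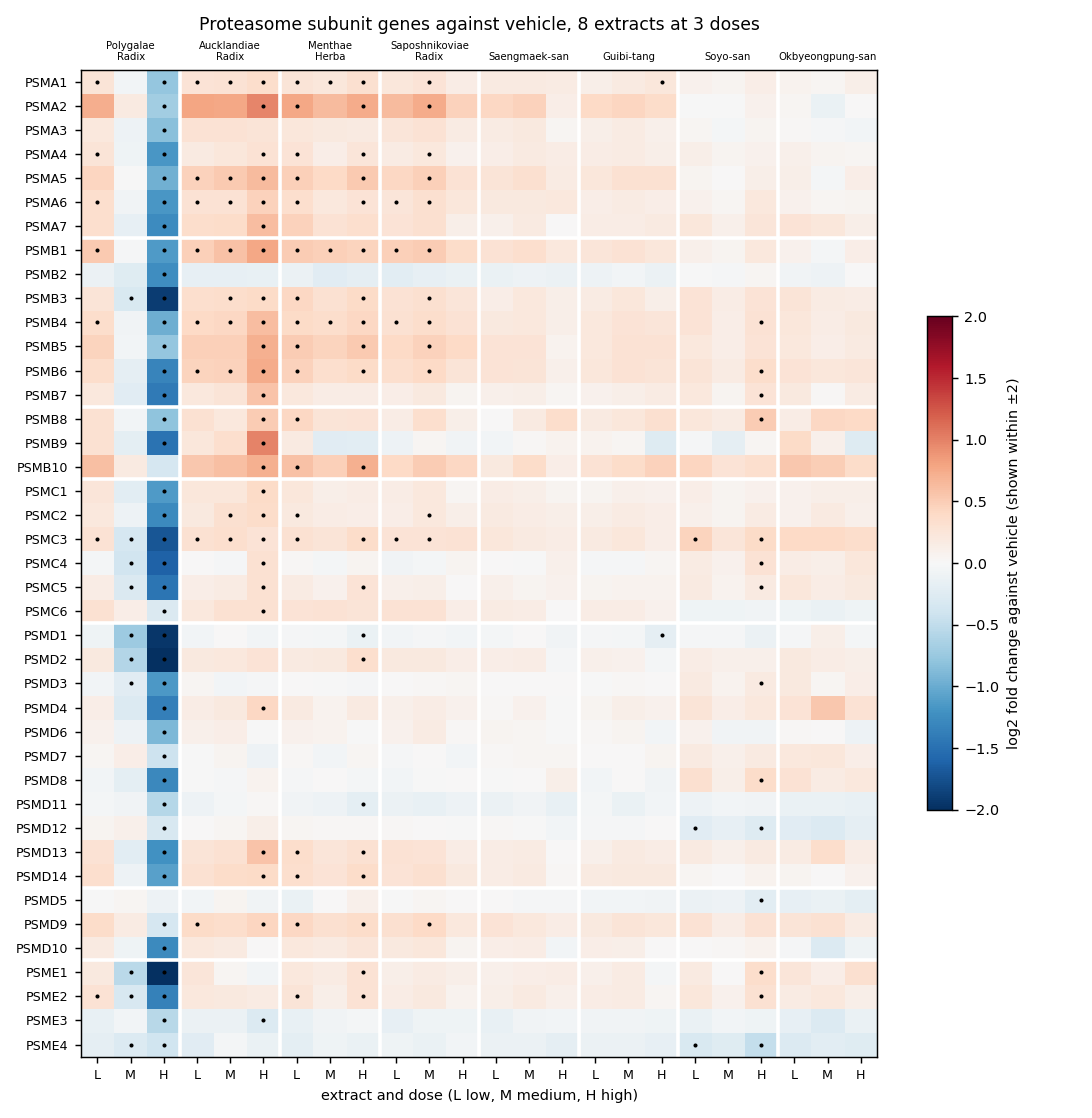
Log2 fold change against vehicle (colour, limited to 2 either way) of the 41 genes, ordered by role, at the low, medium and high dose of each extract. Dots mark an edgeR adjusted p under 0.05, and Okbyeongpung-san shows log2 ratios with no test. The high dose of Polygalae Radix is the column of deep blue, with 39 dots, and the reddest fields are PSMB9 (0.99) and PSMA2 (0.97) at the high dose of Aucklandiae Radix.

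The balance of core to cap transcripts followed the class of the library. The summed CPM of the 14 core genes divided by that of the 17 cap subunits was 0.664 to 0.678 in the vehicle libraries. Leaving out the high dose of Polygalae Radix, it ran from 0.737 to 0.851 in the 37 libraries of class 1 and from 0.642 to 0.716 in the 21 of class 2, so that the classes did not overlap. In the fit with both terms, 9 of 14 core genes were lower in class 2 and 1 higher, and of 17 cap subunits 5 were lower and 6 higher. Under Polygalae Radix at its high dose the ratio was 0.615 in the class 2 library, below all 58 others, and 0.761 in the class 1 library, within the range of its class. At the high dose of Aucklandiae Radix it was 0.829 and 0.830, higher than the 0.779 and 0.795 of its low dose. Since vehicle is wholly in class 2, the larger rise of core than of cap genes in class 1 extracts cannot be told apart from the class.

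**Figure D5:**
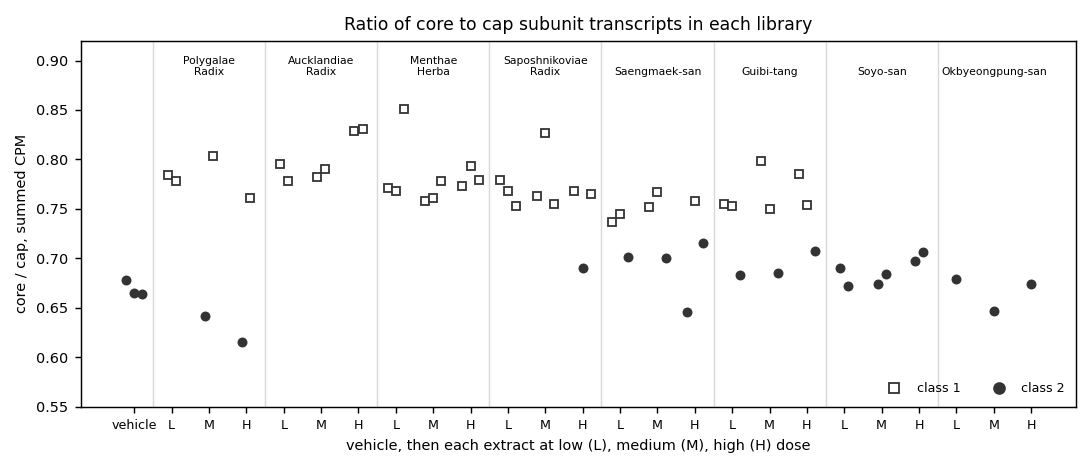
Ratio of the summed CPM of 14 core genes to that of 17 cap subunits in each library, for vehicle and for each extract at low (L), medium (M) and high (H) dose, with squares for class 1 and circles for class 2. With the high dose of Polygalae Radix left out, squares and circles do not overlap, from 0.737 up and 0.716 down, and the vertical axis does not start at 0.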

How the data were processed

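The deposited table holds expected counts per gene for 60 libraries of polyadenylated RNA, which the authors made with STAR 2.7.3a and RSEM 1.3.3 on GRCh38 after FastQC 0.11.9 and Trim Galore 0.6.5, per the submitters' processing notes. The library kit keeps strand, per the labels' protocols. The annotation release and the counting's strand setting were not given in the sources used here. Symbols and exon lengths were taken from GENCODE 29, matched on gene identifier.

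The expected counts were rounded to whole numbers. Genes were filtered with filterByExpr, scaled with TMM and fitted with edgeR 4.0.16 (R 4.3.3) by quasi-likelihood in 1 model of 57 libraries and 22 groups with 35 residual degrees of freedom. The 21 comparisons with vehicle share the same 3 vehicle libraries. p-values were adjusted over 18396 genes in each of 31 comparisons (Benjamini-Hochberg, threshold 0.05), and log2 fold changes are given ± SE. Okbyeongpung-san, with 1 library per dose, was compared as log2 CPM with a prior count of 2. The fit was tried on simulated counts with the same spread for every gene and no split into classes. That trial cannot show how the fit behaves under the class split of these libraries. The alternatives were DESeq2 1.42.0, its size factors, no filter on low counts, only the libraries compared, class as a covariate, a replicate block and leaving out each library. The members and the gene lists were chosen with earlier results of these data known. The cutting subunits, their immunoproteasome forms, the activators and the genes at the ends of each comparison were always named, and further members were named after their values were seen, to show the range of each role. The values of 1 gene of the antigen presentation and interferon list are not reported here.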

Additional observations from a re-analysis of the deposited data

Results flagged for a closer look

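The change from low to high dose differed between Polygalae Radix and Aucklandiae Radix in 38 of the 41 proteasome genes, by a test of the difference itself in edgeR. All 38 differences were negative. The largest were in PSMB9, at -2.54 ± 0.24, PSMD2, at -2.36 ± 0.18, and PSMB3, at -2.22 ± 0.18 (edgeR adjusted p = 9.1e-12, 4.8e-14 and 9.5e-14). PSMB9 fell by 1.78 under the first extract and rose by 0.77 under the second, whereas PSMD2 fell by 2.28 under the first and stood at 0.08 under the second without passing. With any 1 of the 8 libraries left out, 37 to 39 genes differed. The high-dose libraries of Polygalae Radix are of both classes and its low-dose libraries of class 1, as are all libraries of Aucklandiae Radix.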

How the results depend on the processing

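Counts are of the 41 proteasome genes past the threshold. Directions were followed only for the genes named in a comparison, and none of these that was called reversed under any alternative run. Among single genes named in a comparison, 1831 values kept their side of the threshold, 162 lost it and 36 gained it. With the library class as a covariate, the count against vehicle was 13 for Menthae Herba, 3 for Saposhnikoviae Radix, 4 for Saengmaek-san and 4 for Guibi-tang at the high dose. It was 7 for Saposhnikoviae Radix, 3 for Saengmaek-san, 2 for Guibi-tang and 1 for Soyo-san at the medium dose, and 10 for Menthae Herba, 2 for Saengmaek-san, 1 for Guibi-tang and 11 for Soyo-san at the low dose. From low to high dose it was 5 for Aucklandiae Radix, 4 for Menthae Herba and 1 for Guibi-tang. In the same order, the shares of all genes called in that fit were 31.3%, 7.01%, 15.7% and 18.9% at the high dose. At the medium dose they were 15.2%, 7.99%, 7.95% and 3.67%, and at the low dose 20.8%, 7.78%, 5.35% and 21.8%. From low to high dose they were 24.4%, 21.5% and 5.4%.

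With only the libraries compared, the high-dose counts were 32 for Menthae Herba, 6 for Saposhnikoviae Radix, 8 for Guibi-tang and 27 for Soyo-san. The medium-dose counts were 2 for Polygalae Radix, 30 for Aucklandiae Radix, 31 for Menthae Herba, 22 for Saposhnikoviae Radix, 7 for Saengmaek-san and 8 for Soyo-san. The low-dose counts were 30 for Polygalae Radix, 30 for Aucklandiae Radix, 29 for Menthae Herba, 32 for Saposhnikoviae Radix, 3 for Saengmaek-san, 5 for Guibi-tang and 24 for Soyo-san. Between high and low dose they were 18 for Aucklandiae Radix and 1 for Menthae Herba. In the same order, these fits called 50%, 5.29%, 15% and 44.7% of all genes at the high dose. At the medium dose they called 5.45%, 34.8%, 36.5%, 21.7%, 5.38% and 16.4%. The low-dose shares were 28.7%, 31.7%, 23.8%, 34.2%, 2.22%, 4.09% and 34.7%, and those between high and low dose 33.4% and 18.1%.

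Without the filter on low counts, the count was 8 for Saposhnikoviae Radix and 5 for Guibi-tang at the high dose, 18 for Aucklandiae Radix, 14 for Menthae Herba, 5 for Saengmaek-san and 5 for Guibi-tang at the medium dose, and 17 for Polygalae Radix, 15 for Aucklandiae Radix, 16 for Saposhnikoviae Radix, 4 for Saengmaek-san and 1 for Guibi-tang at the low dose. Between high and low dose it was 5 for Aucklandiae Radix, 0 for Menthae Herba and 1 for Saengmaek-san. By the DESeq2 Wald test it was 1 for Saposhnikoviae Radix and 1 for Saengmaek-san at the high dose, 14 for Aucklandiae Radix and 10 for Menthae Herba at the medium dose, 11 for Polygalae Radix, 13 for Aucklandiae Radix, 8 for Saposhnikoviae Radix and 5 for Soyo-san at the low dose, and 1 for Guibi-tang between high and low dose. With DESeq2 size factors it was 2 for Saposhnikoviae Radix at the low dose, where 3.9% of all genes were called. In the same order as the counts, the shares without the filter, over more genes, were 2.48% and 5.24% at the high dose. They were 4.91%, 5.26%, 2.4% and 2.1% at the medium dose and 5.36%, 5.57%, 4.89%, 2.52% and 1.64% at the low dose. Between high and low dose they were 7.76%, 6.3% and 1.2%. By the Wald test the shares were 1.93% and 5.44% at the high dose and 7.79% and 7.96% at the medium dose. The low-dose shares were 9%, 9.93%, 6.71% and 13.9%, and that of Guibi-tang between high and low dose was 3.49%. The cause of these shifts was not tested.

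With each library left out in turn, the high-dose counts against vehicle ran from 0 to 1 for Guibi-tang and from 1 to 8 for Soyo-san. The medium-dose counts ran from 4 to 26 for Polygalae Radix, 0 to 3 for Aucklandiae Radix, 0 to 1 for Menthae Herba and 0 to 15 for Saposhnikoviae Radix. The low-dose counts ran from 0 to 2 for Polygalae Radix, 0 to 1 for Aucklandiae Radix, 0 to 21 for Menthae Herba, 0 to 0 for Saposhnikoviae Radix and 0 to 2 for Soyo-san. Between high and low dose they were 1 for Aucklandiae Radix, 1 to 2 for Menthae Herba and 0 to 1 for Guibi-tang, and for the difference of Menthae Herba and Saposhnikoviae Radix 0 to 1.

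The replicate block gave 7 for Soyo-san at the low dose and 1 for Guibi-tang between high and low dose. There 14.5% and 4.27% of all genes were called. The block moved no other count by over 1.5 times. In 0 of 16 comparisons with 3 pairs were all correlations of same-numbered libraries above 0.1. Those with vehicle say little, since vehicle is in a library set of its own. Between high and low dose the correlations ran from 0.02 to 0.34 for Saengmaek-san and from 0.06 to 0.41 for Guibi-tang. They ran from -0.005 to 0.05 for Menthae Herba and from -0.04 to 0.05 for Saposhnikoviae Radix. The numbers were not taken to pair the libraries, and pairing within a set was not settled. Replicate 3 of Saengmaek-san and Guibi-tang is of class 2 at every dose, with correlations of 0.34 and 0.41 between high and low dose, so there the number carries the class. The groups hold 1 to 3 libraries, which limits every count, and the classes of the libraries cannot be told apart from the extract where all libraries of an extract are of 1 class.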
